A study of Mus musculus with 16 samples.

Results

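The keratin family was taken as all protein-coding genes with a symbol of Krt followed by a digit. It comprised 53 of the 53465 genes in the count table, and the keratin-associated Krtap genes and 2 keratin pseudogenes were not members. RNA sequencing covered 16 tumors, each from another mouse. Every tumor was grown from injected cells of MC38, a colon carcinoma line, under the skin of the right flank of a female C57BL/6 mouse aged 6 to 8 weeks. Mice whose tumor measured 150 to 250 mm3 on day 16 received 200 ug of control IgG (8 mice) or of aPD-1 antibody (8 mice) on days 16 and 20, and tumors were taken on day 21. The study divided the aPD-1 tumors by their CD8 T cell staining into 6 non-responders and 2 responders, so T cell content was the basis of that division. Poly(A) RNA came from 2 sections of 100 microns of the frozen part of each tumor, which hold whatever host tissue adjoined the tumor. Tumors are numbered 1 to 8 for IgG control, 9 to 14 for non-responder and 15 and 16 for responder.

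Keratins are the intermediate filament proteins of epithelial cells. A filament is built from pairs of an acidic type I and a basic type II keratin, so the members of a pair are usually made together. Simple epithelia such as gut, duct and gland use Krt8 and Krt18 with Krt7 and Krt19, the basal layer of skin uses Krt5 and Krt14, the layers above it Krt1 and Krt10, and skin that heals or is inflamed Krt6a, Krt6b, Krt16 and Krt17. Hair shafts and root sheaths have keratins of their own. Mesenchymal cells use vimentin in place of keratins, and carcinoma cells that take on a mesenchymal form tend to lose keratins.

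Of the 53 members, 28 were type I and 25 type II. The genes lie in clusters on chromosomes 11 and 15 of GRCm38, and Krt18, a type I gene, lies beside Krt8 in the type II cluster. Krt8 spans chr15:101996698-102004482 on the minus strand and Krt18 chr15:102028180-102032027 on the plus strand. Promoter sequence is shown for the 3 simple epithelial keratins that RefSeq's GRCm38.p6 table held and whose RNA differed between the groups. It is also shown for Krt10, whose RNA was found in every tumor. Each line runs from 150 bases before to 30 bases after the RefSeq start of the gene, 5′ to 3′ on the gene's strand. The windows are chr15:102004313-102004492 (Krt8), chr15:102028066-102028245 (Krt18), chr15:101412253-101412432 (Krt7) and chr11:99389335-99389514 (Krt10). Capitals mark matches on either strand to any of 4 motifs. The TATA box was searched as TATAAA. The CCAAT box was searched by its name. The GC box was searched as GGGCGG. The AP-1 site was searched as TGANTCA, with any base at N.
Krt8: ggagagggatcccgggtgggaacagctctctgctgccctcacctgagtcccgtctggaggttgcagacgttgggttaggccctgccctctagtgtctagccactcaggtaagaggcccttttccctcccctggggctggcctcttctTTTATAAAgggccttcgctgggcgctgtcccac
Krt18: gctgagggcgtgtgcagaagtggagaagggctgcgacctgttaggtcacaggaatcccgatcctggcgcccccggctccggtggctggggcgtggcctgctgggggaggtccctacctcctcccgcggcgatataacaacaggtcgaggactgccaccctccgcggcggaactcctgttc
Krt7: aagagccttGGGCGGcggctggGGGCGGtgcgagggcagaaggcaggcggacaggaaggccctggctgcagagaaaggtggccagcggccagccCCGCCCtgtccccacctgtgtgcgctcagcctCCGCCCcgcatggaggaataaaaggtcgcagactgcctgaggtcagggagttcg
Krt10: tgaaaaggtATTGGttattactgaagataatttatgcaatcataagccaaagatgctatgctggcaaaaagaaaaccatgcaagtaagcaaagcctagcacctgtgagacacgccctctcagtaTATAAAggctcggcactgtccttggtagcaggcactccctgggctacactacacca
The Krt8 window held 2 overlapping TATA matches on opposite strands, the Krt10 window held a TATA and a CCAAT match, and the Krt7 window held 4 GC matches. The Krt18 window held no match to the 4 motifs. The search covered the 300-base windows of the table, which held 37 windows for 36 of the 53 members. A TATA match was present in 51.35% of the keratin windows and in 13.62% of all 32851 windows. A CCAAT match was present in 40.54% and 37.41%, a GC match in 5.41% and 35.66%, and an AP-1 match in 5.41% and 7.81%. The RefSeq start of Krt7 lies 1360 bases and that of Krt8 140 bases downstream of the first annotated base of the gene, so these windows cover 1 of several possible starts.

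Library totals ran from 26603497 to 39948901 counts, with a median of 34105808. Mitochondrial genes took 2.52% to 3.25% of the counts in 13 tumors and 5.74% to 7.60% in tumors 1, 9 and 14. The label of a colorectal carcinoma was set against 12 colon epithelium genes. Their summed level was 3.03 to 10.1 CPM (counts scaled to a common library size, with TMM factors) over the 16 tumors. Phgr1 had no count in any tumor, and the colon factor Cdx2 had a count in only 1 tumor, at 0.0259 CPM. Other genes of the list were found in every tumor: Car2 at 1.10 to 4.46 CPM, Lgr5 at 0.342 to 2.81 CPM and Cdh17 at 0.336 to 2.22 CPM. Vim, the gene of vimentin, stood at 1749 to 4026 CPM, and the transition factor Zeb1 at 132 to 220 CPM.

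Keratin transcripts were scarce. The 53 genes together held 213 to 4547 counts per tumor, which was 6.25 to 135 CPM before TMM scaling. No count was found in any tumor for 14 members, 18 reached 1 to 9 counts in their highest tumor, and 21 reached 10 counts in at least 1 tumor. A count of 3, the limit that a count of 0 allows, corresponded to 0.0759 to 0.114 CPM. Between genes, levels were compared as CPM per kilobase of exons. Summed over the family, keratins stood at 3.53 to 66.7 CPM per kilobase and Vim at 369 to 849, and Vim exceeded the whole family 6.21-fold in tumor 15 and 173-fold in tumor 10.

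The tumors fell into 3 keratin patterns. Most IgG control and non-responder tumors held low levels led by Krt10, Krt14 or Krt16. Tumors 5, 7 and 12, of which 2 were IgG controls and 1 a non-responder, held 33.6, 37.7 and 58.2 CPM per kilobase, mostly of basal and wound keratins. The responder tumors 15 and 16 held 66.7 and 28.7 CPM per kilobase, of which simple epithelial keratins made up 86.9% and 76.4%. In the other 14 tumors that share was 0.445% to 29.1%. Type I keratins exceeded type II keratins in every tumor, 1.64-fold in tumor 12 to 24.6-fold in tumor 1.

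**Figure D1:**
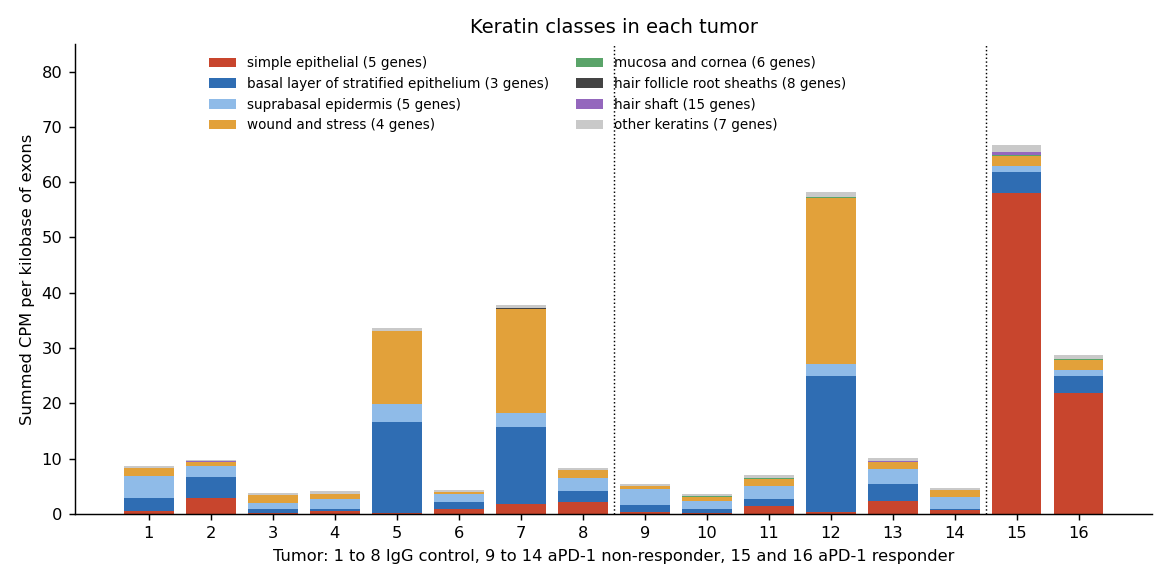
Summed keratin levels in CPM per kilobase of exons (vertical axis) in each of the 16 tumors (horizontal axis), stacked by keratin class with the number of genes in each class. Tumors 15 and 16 are mostly simple epithelial keratins, tumors 5, 7 and 12 mostly basal and wound keratins, and the 2 hair classes are barely visible.

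The comparison of responders with non-responders asks which keratins went with the early response to aPD-1. The filter on low counts, which asks for a level in as few tumors as the smallest group holds, kept 18 of the 53 members, so a gene high in the responders alone could pass it. Krt7, Krt8, Krt18, Krt19 and Krt222 were higher in the responders and no keratin was lower (edgeR's quasi-likelihood test, adjusted p below 0.05 and log2 fold change above 1 in size). Of all 18251 genes tested, 12.5% were higher and 0.663% lower by the same rule. The median log2 fold change was 0.08 over the 18 members tested and 0.02 over all genes. Against IgG controls the same 5 keratins were higher and none was lower, where 14.3% of all genes were higher and 0.641% lower, with medians of 0.70 over the members and -0.02 over all genes. Both comparisons share the responder tumors. Replicates were separate mice, and with 2 responders the exact permutation test cannot go below 0.0714 against the 6 non-responders or 0.0444 against the 8 IgG controls, two-sided.

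Krt8, the type II keratin of simple epithelia, stood at 31.9 and 13.1 CPM in the responder tumors 15 and 16, from 1079 and 467 counts. In non-responders its lowest, median and highest levels were 0.0304, 0.233 and 1.03 CPM, and in IgG controls 0.0374, 0.273 and 1.37 CPM. Both responders lay above each of the other 14 tumors, a separation whose share among all genes was not counted. The log2 fold change was 5.99 (SE 0.93, edgeR adjusted p = 0.000177) against non-responders and 5.57 (SE 0.82, edgeR adjusted p = 8.01e-05) against IgG controls, and the exact permutation p was 0.0714 and 0.0444. Without tumor 15, which leaves tumor 16 as the only responder, the log2 fold changes were 5.16 and 4.73.

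Krt18, the type I partner of Krt8, stood at 33.3 and 11.3 CPM in the responders, from 1128 and 402 counts. Its lowest, median and highest levels were 0, 0.203 and 1.54 CPM in non-responders and 0, 0.296 and 1.80 CPM in IgG controls. The responders again lay above every other tumor, and tumor 15 was the higher of the pair. The log2 fold change was 5.61 (SE 1.16, edgeR adjusted p = 0.00228) against non-responders and 5.15 (SE 1.03, edgeR adjusted p = 0.0014) against IgG controls. Without tumor 15 it was 4.57 (edgeR adjusted p = 0.0743) and 4.11 (edgeR adjusted p = 0.0728), so the call rested on that tumor.

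Krt19, a type I keratin of ducts and glands that has no tail domain, stood at 30.5 and 12.1 CPM in the responders. The lowest, median and highest levels were 0.0911, 0.275 and 0.951 CPM in non-responders and 0, 0.424 and 1.31 CPM in IgG controls. No tumor of the other groups reached the responders. The log2 fold change was 5.61 (SE 0.97, edgeR adjusted p = 0.000509) against non-responders and 5.21 (SE 0.86, edgeR adjusted p = 0.000252) against IgG controls. Without tumor 15 these were 4.72 and 4.33, both still called.

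Krt7, a type II keratin of ducts and other glandular epithelia, stood at 11.9 and 5.09 CPM in the responders. Its lowest, median and highest levels were 0.0304, 0.388 and 0.720 CPM in non-responders and 0.115, 0.459 and 0.693 CPM in IgG controls. The groups did not overlap, and the SD of Krt7 in CPM, 0.230 in non-responders and 0.194 in IgG controls, was the smallest of these 4 genes in both groups. The log2 fold change was 4.46 (SE 0.59, edgeR adjusted p = 3.49e-05) against non-responders and 4.21 (SE 0.53, edgeR adjusted p = 1.59e-05) against IgG controls. Without tumor 15 these were 3.65 and 3.41, both still called. The annotated exons of Krt7 span 7049 bases because of long transcript forms, which lowers its level per kilobase relative to the other 3 genes.

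**Figure D2:**
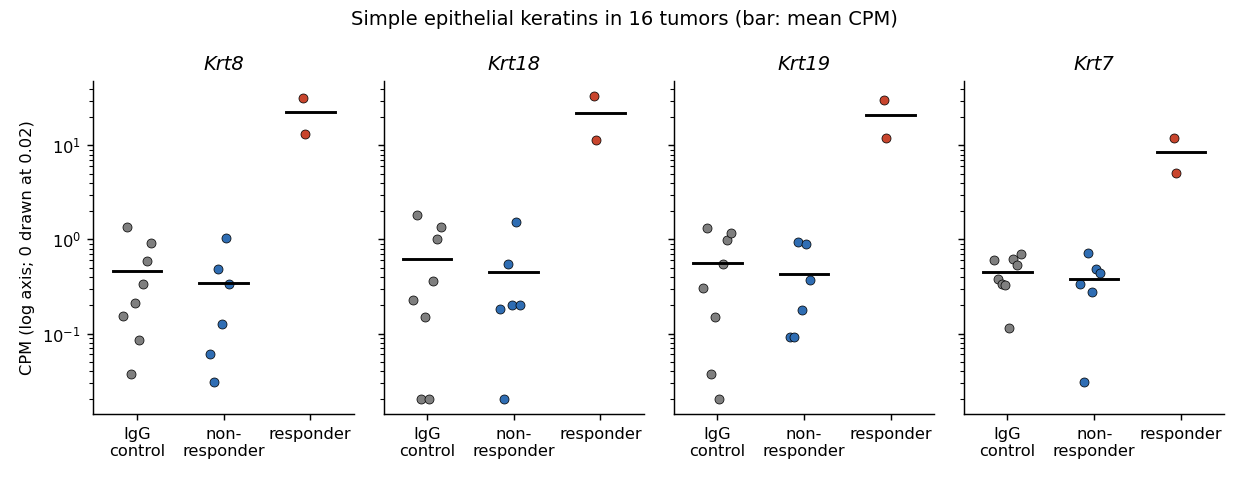
Levels of Krt8, Krt18, Krt19 and Krt7 in CPM on a log axis (vertical) by group (horizontal), 1 point per tumor, with the group mean as a bar and levels of 0 drawn at 0.02. For all 4 genes both responder tumors lie above the 14 others, at 5.09 to 33.3 CPM against at most 1.80 CPM. How many of all genes separate in this way was not counted.

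Krt20, the keratin of differentiated intestinal epithelium and the fifth gene of the class, stood at 0.710 and 0.197 CPM in the responders, at 0.0610 to 0.308 CPM in non-responders and at 0.0277 to 0.366 CPM in IgG controls. Per kilobase it made up 0.635% and 0.466% of the simple epithelial class in the responders and 0.668% to 67.3% in the other tumors, with the highest shares in tumors 10, 5, 3 and 4. The groups overlapped in CPM, and the log2 fold change of 1.43 against non-responders did not pass (SE 0.76, edgeR adjusted p = 0.217). Per kilobase, Krt18 was the highest keratin of both responders, at 34.8% and 27.4% of the family.

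Krt222, a short keratin-like gene of the type I cluster, was called with a smaller change. It stood at 1.92 CPM in tumor 15 and 0.647 CPM in tumor 16, at 0.304 to 0.711 CPM in non-responders and at 0.450 to 0.720 CPM in IgG controls. Tumor 15 lay above all others and tumor 16 lay within both groups. The log2 fold change was 1.32 (SE 0.38, edgeR adjusted p = 0.0205) against non-responders and 1.21 (SE 0.36, edgeR adjusted p = 0.0226) against IgG controls. Without tumor 15, which leaves tumor 16 as the only responder, it was 0.27 and 0.15, and neither call was made. The call against non-responders was also lost without tumor 10 (log2 fold change 1.14, edgeR adjusted p = 0.0506), with no filter on low counts and in a fit of only the 2 groups, and the call against IgG controls with no filter.

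Other genes of epithelial cells moved with the simple epithelial keratins. Of 17 genes of epithelial junctions and adhesion, 15 were tested, and 13 were higher and 0 lower in the responders in each comparison, with a median log2 fold change of 2.93 against non-responders and 3.09 against IgG controls. Among all genes tested, 12.5% were called higher against non-responders and 14.3% against IgG controls. The summed level of the junction and adhesion list was 88.8 and 48.1 CPM in the responders and 12.6 to 18.6 CPM in the 14 other tumors. Epcam, a surface adhesion molecule of epithelia, stood at 10.6 and 5.31 CPM against at most 0.942 CPM elsewhere (log2 fold change 4.30 against non-responders, edgeR adjusted p = 0.000277). Dsg2, a desmosomal cadherin, stood at 10.8 and 3.23 CPM against at most 0.210 CPM (log2 fold change 6.09, edgeR adjusted p = 4.25e-06). Cdh1, the gene of E-cadherin, stood at 9.79 and 8.55 CPM against 3.75 to 8.12 CPM, and its log2 fold change of 0.78 was below the size asked for (edgeR adjusted p = 0.0276). Of 14 other intermediate filament and keratin partner genes, 13 were tested and 3 cytolinker genes, Ppl, Evpl and Eppk1, were called higher in the responders. Plec, a cytolinker gene of the same list at 293 to 571 CPM, was not called. Its log2 fold change was -0.43 against non-responders (edgeR adjusted p = 0.185) and -0.48 against IgG controls (edgeR adjusted p = 0.115). Vim stood at 1967 and 1749 CPM in the responders against 2319 to 4026 CPM elsewhere, a log2 fold change of -0.68 (SE 0.20, edgeR adjusted p = 0.023) that did not reach the size asked for. None of 8 mesenchymal transition factors was called in either direction. Snai1 (log2 fold change -0.68, edgeR adjusted p = 0.00685) and Snai2 (-0.79, edgeR adjusted p = 0.0054) were lower in responders than in non-responders by less than the size asked for.

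Genes of further cell types moved with the same 2 tumors. In bulk RNA, more cells of a type and more RNA per cell cannot be told apart. All 7 fat cell genes were called higher in the responders in both comparisons, and their summed level was 2645 and 431 CPM in tumors 15 and 16 against 17.3 to 155 CPM in the others. All 6 T cell genes were called (182 to 195 CPM against 6.33 to 25.1 CPM), as were all 4 B cell genes (836 and 229 CPM against 0.478 to 4.38 CPM). The responders were defined by CD8 T cell staining, so the T cell calls go with how the groups were made. The fat cell, T cell and B cell lists were chosen with earlier results of these data known, so their calls are not independent evidence. Of 12 mammary epithelium genes, a list written after the values were seen and therefore not evidence of its direction, 8 were tested and 7 were called higher in the responders. The list summed to 120 and 45.4 CPM in the responders and 4.49 to 15.5 CPM elsewhere. Prlr, the prolactin receptor, stood at 59.7 and 23.7 CPM against at most 2.30 CPM, and Elf5, a factor of the mammary secretory lineage, at 2.57 and 0.928 CPM against at most 0.0864 CPM. The milk gene Wap had no count in any tumor. In the colon epithelium list, 4 of 12 genes were tested, and only Car2 was called against non-responders (log2 fold change 1.11, edgeR adjusted p = 0.0146) and Car2 and Cdh17 against IgG controls. Of the other lists, 1 of 7 fibroblast genes (Lum) and 1 of 5 macrophage genes (Mrc1) were higher in the responders, each in both comparisons. Among all genes tested, 12.5% were called higher against non-responders and 14.3% against IgG controls. The fibroblast and macrophage counts were near that share. The 8 skeletal muscle genes and the 1 of 4 mesothelium genes tested gave no call. The part of these tissues in the keratin values was not tested.

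No keratin of stratified skin was called in the fit of all 16 tumors, in which 3 tumors of the IgG control and non-responder groups held most of these transcripts. Krt14, the type I keratin of basal keratinocytes, was present in every tumor, with 22.2 CPM in tumor 5, 22.8 CPM in tumor 7 and 36.5 CPM in tumor 12. The other 6 IgG controls held 0.690 to 6.43 CPM, the other 5 non-responders 0.474 to 3.78 CPM and the responders 4.32 and 3.12 CPM. Its log2 fold change in responders was -1.06 (SE 1.51, edgeR adjusted p = 0.70) against non-responders, and 0.90 (edgeR adjusted p = 0.64) once tumor 12 was left out. Krt5, its type II partner, stood at 7.23, 2.19 and 7.87 CPM in tumors 5, 7 and 12. It reached 2.63 and 1.69 CPM in the responders and 1.13 CPM in tumor 13, and at most 0.152 CPM in the 10 remaining tumors. The Krt5 level of both responders thus lay above 11 of the 14 other tumors, but the spread left the log2 fold change at 0.46 (SE 1.93, edgeR adjusted p = 0.91) against non-responders. Krt15, a keratin of basal and hair bulge cells, reached 0.803 CPM in tumor 5, 0.694 CPM in tumor 13 and 0.703 CPM in tumor 16, from at most 28 counts.

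The wound keratins were highest in the same 3 tumors. Krt6a stood at 8.95, 9.84 and 17.9 CPM in tumors 5, 7 and 12 and at 0 to 0.299 CPM in all others. Krt6b stood at 7.97, 16.5 and 22.1 CPM in these tumors and at 0 to 0.262 CPM elsewhere. Their partners behaved differently outside the 3 tumors. Krt16 stood at 6.37, 8.46 and 12.1 CPM in them but also at 0.571 to 2.19 CPM in every other tumor. Krt17 stood at 3.04, 3.07 and 7.85 CPM in them, at 1.06 and 0.928 CPM in the responders, and at 0 to 0.231 CPM in the other 11. None of the 4 was called in a comparison: the log2 fold change of the responders against non-responders was -4.88 for Krt6a (SE 3.53, edgeR adjusted p = 0.393), -5.64 for Krt6b (SE 3.92), -0.87 for Krt16 (SE 1.07) and -0.48 for Krt17 (SE 2.28). Without tumor 12 those of Krt6a and Krt6b were 0.21 and 0.01.

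Krt6a and Krt6b are close copies, and reads from identical stretches can fit both. Their coding sequences of 1659 and 1662 bases were 97.59% identical, with 37 differing bases, and the longest identical run was 280 bases. The stretch that differs most, bases 787 to 876 of each coding sequence from the GENCODE M21 transcripts, is shown with its 12 differing bases in capitals.
Krt6a: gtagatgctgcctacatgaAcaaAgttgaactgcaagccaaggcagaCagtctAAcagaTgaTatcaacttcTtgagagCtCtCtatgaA
Krt6b: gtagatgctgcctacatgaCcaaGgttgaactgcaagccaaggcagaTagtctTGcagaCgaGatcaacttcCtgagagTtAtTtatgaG
Of the 100-base windows of the transcripts, 33.96% for Krt6a and 30.62% for Krt6b were shared with another gene, 24.28% for Krt16 and 16.89% for Krt8, whose windows matched its pseudogene. The share was 2.38% for Krt5 and 2.88% for Krt14, and 0% for Krt7, Krt18 and Krt19. The split between Krt6a and Krt6b is therefore uncertain for reads from shared stretches, and how reads were assigned was not tested. The 2 keratin pseudogenes of the table, those with a Krt symbol, held at most 4 counts in a tumor. Windows of Krt16 were shared with Gm11597 and Krt14, and those of Krt6a and Krt6b also with Gm5478 and Gm5414. Counts of these Gm genes were not examined. Genes on the opposite strand overlap some members, among them Krt7, Krt8 and Krt10. The library kit kept strand, but whether counting used it is not given in the sources used here.

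Krt10, the type I keratin of the layers above the basal layer, varied less across tumors than Krt14 or Krt16. It was found in every tumor, at 2.57 and 2.31 CPM in the responders, at 3.04 to 6.07 CPM in non-responders and at 2.25 to 8.28 CPM in IgG controls. The responders lay below all 6 non-responders and within the IgG controls. The log2 fold change was -0.88 against both groups (SE 0.39 and 0.38) and did not pass (edgeR adjusted p = 0.132 and 0.113). Its partner Krt1 had 54, 69 and 84 counts in tumors 5, 7 and 12, 28 counts in tumor 13 and at most 4 counts elsewhere. Krt77, a type II keratin of the suprabasal class, had 27 counts in tumor 5, 36 in tumor 13 and at most 3 elsewhere. Krt79, a keratin of hair canal and sebaceous duct cells, reached 1.59 CPM in tumor 12, 0.703 CPM in tumor 7 and 0.516 CPM in tumor 5, and 0.443 and 0.141 CPM in the responders. Krt80, an epithelial keratin, was spread over all tumors at 0.152 to 2.28 CPM with no call.

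**Figure D3:**
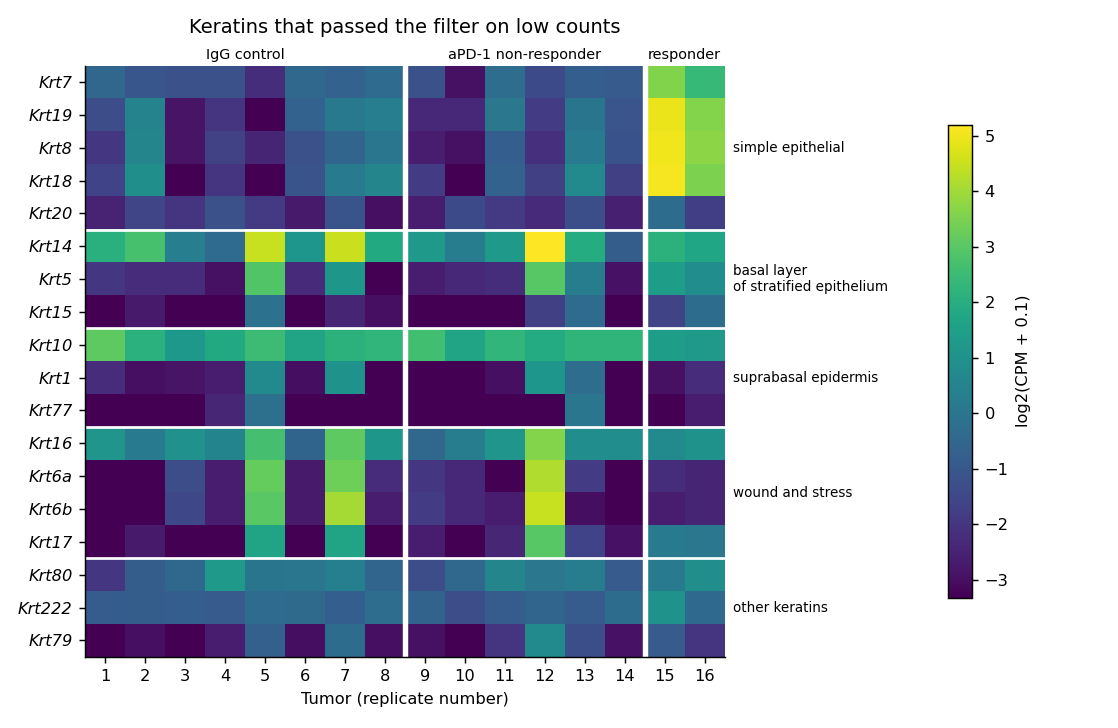
Levels of the 18 keratins that passed the filter on low counts (rows, grouped by class) in the 16 tumors (columns, divided by group), as log2(CPM + 0.1). The responder columns stand out for Krt7, Krt8, Krt18 and Krt19, and tumors 5, 7 and 12 for Krt14, Krt1, Krt16, Krt6a, Krt6b and Krt17. For Krt5, tumors 5 and 12 stand out, and tumor 7 (2.19 CPM) lies between tumors 15 and 16 (2.63 and 1.69 CPM).

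Many, but not all, keratinocyte genes outside the family were high in the same 3 tumors. Of 18 such genes, 13 were higher in each of tumors 5, 7 and 12 than in all 11 other tumors without a response. The other 5, Trp63, Sbsn, Ivl, Calml3 and Sfn, were not. The 3 tumors were picked for high levels of epidermal genes, and the share of all genes with this split was not counted. Sfn stood at 2.55 and 3.21 CPM in tumors 5 and 7 against 6.04 CPM in tumor 1, and Trp63, a basal cell factor, at 0.860 and 1.18 CPM against 2.07 CPM in tumor 4. The list summed to 26.1, 26.8 and 59.5 CPM in tumors 5, 7 and 12, to 140 and 56.2 CPM in the responders and to 6.70 to 14.3 CPM in the rest. Krtdap, made in differentiating keratinocytes, stood at 1.15, 1.27 and 2.66 CPM in tumors 5, 7 and 12, at 0.154 CPM in tumor 13 and at 0 to 0.0300 CPM in all others, responders included. Lgals7, a galectin of stratified epithelia, stood at 6.11, 5.09 and 15.8 CPM in the 3 tumors and at 0 to 0.977 CPM elsewhere. The sum in the responders came largely from 2 of the 4 called genes, Ly6d (77.1 and 23.3 CPM) and the desmosomal cadherin Dsc3 (20.5 and 13.9 CPM), with Sbsn and Sfn also called. Whether tumors 5, 7 and 12 held adjoining skin was not tested, nor was which cells held these transcripts in the responders.

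Leaving out tumors 5, 7 and 12, an alternative added after the values were seen and resting on tumors picked for these genes, gave 6 keratins higher in responders than in non-responders, where Krt17 joined the 5 (log2 fold change 3.49, edgeR adjusted p = 0.0125). Against IgG controls it gave 7, where Krt5 (log2 fold change 4.65, edgeR adjusted p = 0.00498), Krt17 (6.19, edgeR adjusted p = 0.000539) and Krt79 (3.37, edgeR adjusted p = 0.0353) were called and Krt222 was not (1.23, edgeR adjusted p = 0.0538). Removing the comparison tumors highest in Krt5, Krt17 and Krt79 raises these fold changes by itself, so their added calls cannot serve as support.

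**Figure D4:**
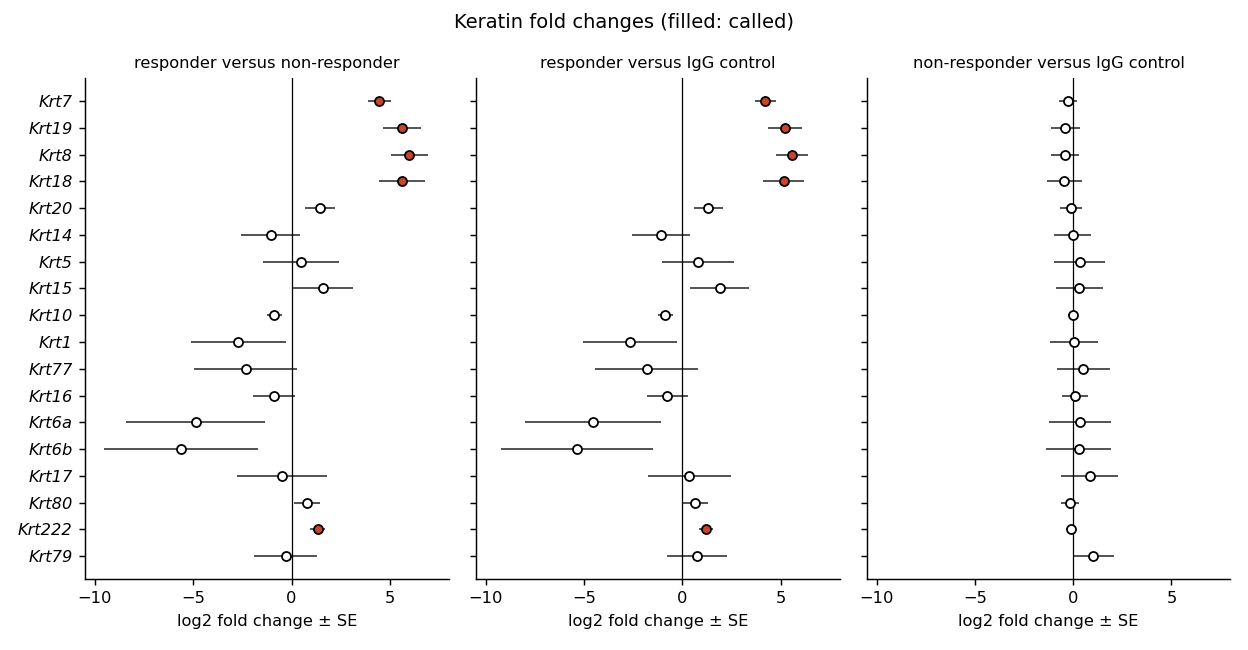
Log2 fold change with its standard error (horizontal axis) of the 18 keratins tested (vertical axis) in the 3 comparisons, with filled points for genes called. Krt7, Krt8, Krt18, Krt19 and Krt222 are called higher in responders, and no keratin is called between non-responders and IgG controls.

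Non-responders and IgG controls were compared to see whether aPD-1 without a response went with keratins. No keratin was called, against 0% of all genes higher and 0% lower. Log2 fold changes of the 18 members ran from -0.46 to 1.03 with a median of 0.02, and the smallest edgeR adjusted p was 0.987. At an unadjusted p under 0.05 there were 0 keratins and 694 of all 18251 genes, and DESeq2 also called 0 keratins. Krt8 had a log2 fold change of -0.42 (SE 0.72) and Krt14 of -0.02 (SE 0.93).

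Type I and type II partners were compared across tumors for the 6 pairs in which both genes passed the filter. Levels were log2 CPM after adding 2 counts. All 6 pairs fell into separate clusters of tumors, so each correlation was taken within the larger cluster, with permutation p-values adjusted over the 6 pairs. Krt18 and Krt8 rose and fell together over the 14 tumors without the responders, with Pearson's r = 0.939 (permutation p = 1e-05, the smallest that 100000 permutations can give, adjusted 6e-05) and Spearman's rho = 0.938 (adjusted permutation p = 6e-05). Without tumors 2 and 13, the farthest from the median, r was 0.908, and it was 0.971 within IgG controls and 0.911 within non-responders. Krt19 and Krt7 followed each other less closely over the same 14 tumors, with r = 0.695 (permutation p = 0.00306, adjusted 0.00918), rho = 0.736 (adjusted permutation p = 0.0121) and r = 0.663 without tumors 3 and 5. Both relations rest on levels below 2 CPM, so the tumors share low counts. Tumors 2, 13, 8, 7 and 11, in that order, were the highest of the 14 for Krt8.

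For the skin pairs, tumors 5, 7 and 12 formed their own cluster (with tumor 13 for Krt10 and Krt1). Over the 14 tumors without the responders, these included, r was 0.849 for Krt14 and Krt5, 0.839 for Krt16 and Krt6a, 0.922 for Krt17 and Krt6b and 0.134 for Krt10 and Krt1. Such a pooled r spans separate clusters. It can reflect the gap between them and does not measure how partners vary within a cluster. Without the high cluster, but with the responders included, no pair passed. The sets thus differed both in the high cluster and in the responders. Krt14 and Krt5 had r = 0.464 over 13 tumors (permutation p = 0.108, adjusted 0.217) and rho = 0.582 (permutation p = 0.0406, adjusted 0.0813). Krt16 and Krt6a had r = -0.073 (adjusted permutation p = 0.973), Krt17 and Krt6b r = 0.004 (adjusted permutation p = 0.989) and, over 12 tumors, Krt10 and Krt1 r = -0.088 (adjusted permutation p = 0.973). With 3 or 4 tumors in the high cluster, the relation within it could not be tested.

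**Figure D5:**
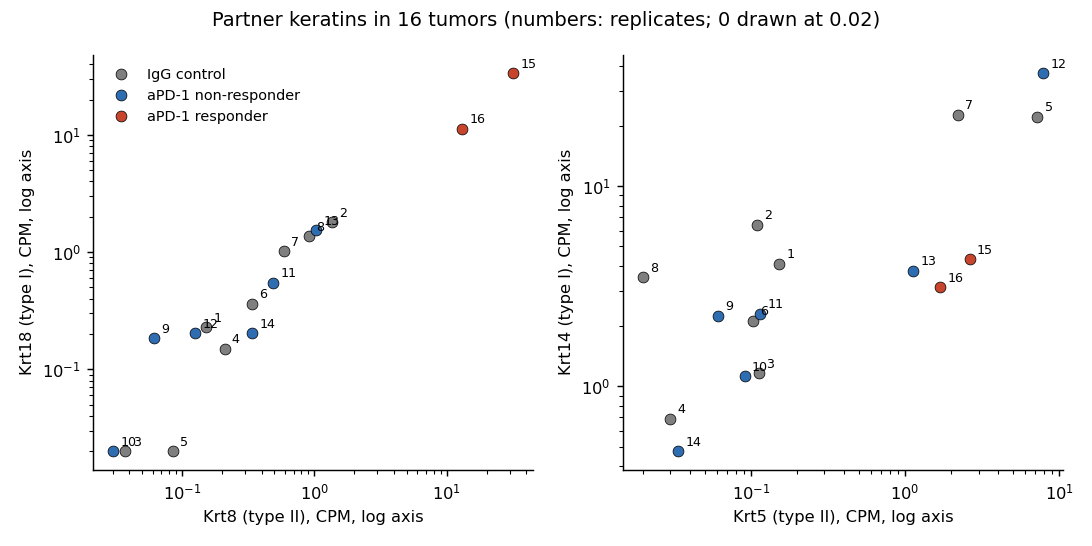
Level of the type I partner (vertical) against that of the type II partner (horizontal) in CPM on log axes, 1 numbered point per tumor colored by group, for Krt18 and Krt8 (left) and Krt14 and Krt5 (right), with levels of 0 drawn at 0.02. Krt18 and Krt8 lie along 1 line with the responders at its upper end, and tumors 5, 7 and 12 stand apart at the top right of the Krt14 and Krt5 panel.

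Hair keratins were at or near the limit of counting. The 8 root sheath keratins had at most 4 counts in a tumor, among them Krt75 in tumor 7 and Krt28 in tumor 12, and summed to 0 to 0.0701 CPM per kilobase. Of the 15 hair shaft keratins, Krt83 reached 17 counts and Krt36 12 counts in tumor 15, and every other gene at most 2 counts. The class summed to 0.0141 to 0.141 CPM per kilobase in 14 tumors, 0.568 in tumor 15 and 0.0932 in tumor 16. Tumors 5, 7 and 12 held 0.0167, 0.0458 and 0.0550 CPM per kilobase of hair shaft keratins, within the range of the other IgG controls and non-responders. Of 12 hair follicle genes outside the family, 6 were tested and Msx2 and Gata3 were called higher in the responders, while Krtap3-1, Krtap11-1 and Dsg4 had no count in any tumor. Among all genes tested, 12.5% were called higher against non-responders and 14.3% against IgG controls. Of 6 sebaceous gland genes, 4 were tested and none was called. The 6 keratins of mucosa and cornea summed to 0 to 0.169 CPM per kilobase, and Krt12 of the cornea and Krt76 of the palate had no count. Krt23, a type I keratin, had 19 counts in tumor 15 and at most 9 elsewhere, and did not pass the filter. With no filter, and with tumor 16 left out, Krt23 and Krt36 were called higher in responders than in IgG controls. In all, the 35 members not tested reached at most 0.562 CPM in any tumor.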

How the data were processed

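Sections of 16 MC38 tumors were sequenced, 1 library per mouse. The authors aligned reads with STAR 2.6 to GRCm38 and deposited expected counts per gene from RSEM 1.3.0 with Ensembl annotation, which divides reads that fit several genes, so 7.84% of values were not whole. Counts were rounded here. The table held 53465 genes, of which 53360 matched GENCODE M21, and 92 spike-in entries that name no gene (at most 0.000549% of counts) were left out. Totals per tumor were 26603497 to 39948901, and intervals from 3 counts cover counting error only. Among 120 pairs of libraries none was a copy of another: the smallest chi-square of their counts was 16.3 times its degrees of freedom.

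All genes were fitted in 3 groups with edgeR 4.0.16 (R 4.3.3; TMM, filterByExpr, robust quasi-likelihood, Benjamini-Hochberg over 18251 genes), checked on simulated data. The study used DESeq2, here an alternative (1.42.0). Other alternatives were median-of-ratios size factors, no filter, at least 10 counts in 8 tumors, only the 2 groups compared, each tumor left out and, added after the values were seen, leaving out 3 tumors high in epidermal genes or 3 above 5% mitochondrial counts. Single genes were also compared by exact permutation tests in scipy 1.17.1. Lengths were exon unions. Correlations used 100000 permutations, and tumors with a gap above 25% of the range formed separate clusters. Coding sequences were aligned globally with Biopython. The members, the 8 keratin classes and the 14 marker lists were chosen with earlier results of these data known, and a mammary list after its values were seen. Members were described singly where tested and at a median of 1 CPM, or called, or at 1 CPM in a tumor and there over 10 times their median, or in a partner pair. Other members were given by range and count, or singled out after their values were seen (Krt15, Krt20, Krt77, Krt80, Krt23). Spatial data were not used here.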

Additional observations from a re-analysis of the deposited data

Results flagged for a closer look

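Among 28 sets of values tested (the 14 keratins described singly, in IgG controls and in non-responders), 4 had a tumor far from the others of its group by Dixon's criterion, and chance gives about 1 in 20. Tumor 12 stood apart from the other 5 non-responders in 3 of them, with 17.9 CPM of Krt6a, 22.1 CPM of Krt6b and 7.85 CPM of Krt17. The 3 values come from the same library, and Krt6a and Krt6b share stretches of sequence. Tumor 5 held the lowest Krt7 level of the IgG controls, 0.115 CPM from 4 counts.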

How the results depend on the processing

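The counts of keratins called were 5 in both responder comparisons with DESeq2, other size factors and the stricter filter, 4 and 6 with no filter (without Krt222, and with Krt23 and Krt36 against IgG controls). With each tumor left out they ranged from 3 to 5 against non-responders and from 3 to 7 against IgG controls, with 3 without tumor 15 (Krt7, Krt8 and Krt19) and 7 without tumor 16, which added Krt23 and Krt36. A fit without tumor 15 or 16 rests on a single responder, which limits those counts. Leaving out tumor 10 lost Krt222 against non-responders, and leaving out tumor 5 added Krt15 against IgG controls. Between non-responders and IgG controls the count was 0 in every setting run. DESeq2 turned Krt6a to 0.18 (log2) against IgG controls, and leaving out the tumors above 5% mitochondrial counts turned Krt5 to -0.15 against non-responders. Leaving out the 3 tumors high in epidermal genes turned Krt14 to 0.90 and 0.31, Krt16 to 0.29 and 0.22 (against non-responders and IgG controls), and Krt17 to 3.49 and Krt79 to 1.42 against non-responders. With each tumor left out, log2 fold changes against non-responders ranged from -5.19 to 0.21 for Krt6a, -5.96 to 0.011 for Krt6b, -1.38 to 0.90 for Krt14, -1.10 to 0.29 for Krt16, -0.79 to 3.48 for Krt17 and -1.39 to 1.41 for Krt79, each highest without tumor 12. Against IgG controls Krt79 ranged from -0.37 to 1.56, highest without tumor 7. Over the 14 tumors without the responders, tumors 5, 7 and 12 included, r pooled over separate clusters was 0.849 for Krt14 and Krt5, 0.134 for Krt10 and Krt1, 0.839 for Krt16 and Krt6a and 0.922 for Krt17 and Krt6b. These pooled values do not measure how partners vary within a cluster. Within the larger cluster, responders included, r with each tumor left out ranged from 0.391 to 0.576, -0.63 to 0.161, -0.206 to 0.091 and -0.092 to 0.176 for these pairs. No paired analysis was possible because no replicate number is shared between groups. Depth limits members with few counts, and only 2 tumors responded. The causes were not tested.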

Other observations

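Within the 14 tumors that were not responders, Krt8, Krt18 and Krt19 went with the 7 fat cell genes (mean log2 CPM), a relation computed after the values were seen and adjusted over 4 keratins. Pearson's r was 0.86 for Krt8 (permutation p = 0.00011, adjusted 0.00022, rho = 0.855), 0.874 for Krt18 (permutation p = 0.00011, rho = 0.868) and 0.834 for Krt19 (permutation p = 0.00042, adjusted 0.00056, rho = 0.846). For Krt7 it was 0.487 (permutation p = 0.0761, rho = 0.543). Without the 2 farthest tumors r was 0.864, 0.849, 0.8 and 0.56. Within IgG controls it was 0.894, 0.878, 0.836 and 0.386, and within non-responders 0.81, 0.867, 0.844 and 0.62. All 4 keratins stood below 2 CPM in these tumors. What the relation comes from was not tested.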
